A study of Mus musculus with 20 samples.

Results

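Day 60 after Ad-VEGF-A164 was set against day 0 in mouse flank tissue, to describe what still differed once the vector's gene had faded. The 10 arrays compared were chosen by their labels, 5 of day 60 and 5 of the day 0 control, out of 20 arrays in the series. Arrays of day 5 (4) and day 20 (5) entered the same fit and are given beside the results. Ad-VEGF-A164 is an adenoviral vector that drives production of VEGF-A164, an isoform of the main growth factor for blood vessels, in the cells it infects. The label of the control names no vector. No group of an empty vector and no untreated group of day 60 was used here, so effects of VEGF-A, of the virus, of injecting it and of elapsed time cannot be told apart. The sources used here do not give strain, sex, age or dose. Whether each array stands for its own animal is not in the labels, so p-values measure only how these samples vary, part of which may be technical. The remaining array had a day 5 title but the source name of a day 0 control, and was left out of every comparison.

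VEGF-A binds the receptors Flt1 and Kdr on endothelial cells, and makes vessels leak, sprout and enlarge. Neuropilins act as co-receptors, and Notch signalling separates arterial from sprouting cells. VEGF-C and its receptor Flt4 do for lymphatic vessels what VEGF-A does for blood vessels. Vessels that form under a short burst of VEGF-A mostly regress when it fades, while some mature by gaining mural cells. Flank tissue is mixed, with dermis and hair follicles, fat, a thin muscle and, in this region of the mouse, mammary ducts. Control arrays carried markers of these tissues, with mean log2(signal + 100) over the listed genes of 14.4 to 15.0 for skeletal muscle, 12.8 to 14.1 for white fat, 11.5 to 13.7 for hair follicle and 11.4 to 11.6 for mammary luminal epithelium. In such bulk RNA, fewer cells of a type and less RNA per cell cannot be told apart.

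Most genes stood close to control on day 60. Of 13594 genes tested, 50 were higher than in control (0.368% of those tested) and 104 were lower (0.765%), 154 in all (1.13%), at an adjusted p under 0.05 from limma, the linear model fitted to every gene. By the same rule 4097 genes (30.1%) differed from control on day 20 and 4658 (34.3%) on day 5, against the same control arrays. The median change of all tested genes on day 60 was 0.01 log2 units, with 90% of genes lying between the 5th percentile of -0.58 and the 95th of 0.54. A change of 2-fold or more was called for 12 higher genes (0.0883%) and 63 lower genes (0.463%). The 5 day 60 arrays lay above all 5 controls for 167 genes (1.23%) and below them for 188 (1.38%), and among called genes for 33 (0.243%) and 72 (0.53%). All changes are differences of log2(signal + 100), a scale that makes changes of dim genes look smaller. When the arrays were centred on their 75th percentiles, 30 genes were called higher and 107 lower, so that higher genes made 21.9% of the calls and not 32.5%.

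These calls rested on a spread estimated from all 4 groups, and on single arrays. With the 10 compared arrays alone, 0 genes were called higher and 2 lower, Dbp and Ltf (both adjusted p = 0.00589). At an unadjusted p under 0.05 in the fit of 4 groups, 1136 genes were higher (8.36%) and 1019 lower (7.5%). Leaving out 1 compared array at a time gave from 4 higher and 19 lower calls (without control A) to 326 higher and 267 lower (without control B). Calls were also few without control E (5 and 17) and day 60 A (6 and 28), and many without day 60 C (188 and 177). No gene was called when the array of conflicting labels was counted as control. The Vegfa signal of that array was 11111, beside 66.5 to 467 in control, so this count says little about stability. Of the 154 called genes, 18 were called without each of the 10 compared arrays in turn. The 2 of these that were higher were Fxyd5 and Prc1. The 16 lower were Clca3a2, Tmprss2, Ltf, Dbp, Rasef, Npr3, Pfkfb3, Aldh1a7, Muc16, Pparg, Stc2, Dixdc1, 4933433N18Rik, Txnip, Aifm1 and Ghr. All 154 kept their direction in the 19 omissions of 1 array, which says little about stability. Leaving out a day 5 or day 20 array cannot move a day 60 change, and the genes were called on these same compared arrays. At the threshold itself, Becn1 (adjusted p = 0.0499) and Nudt12 (0.0491) lay just inside, and Meaf6 and Tnfrsf25 (both 0.0508) just outside.

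**Figure D1:**
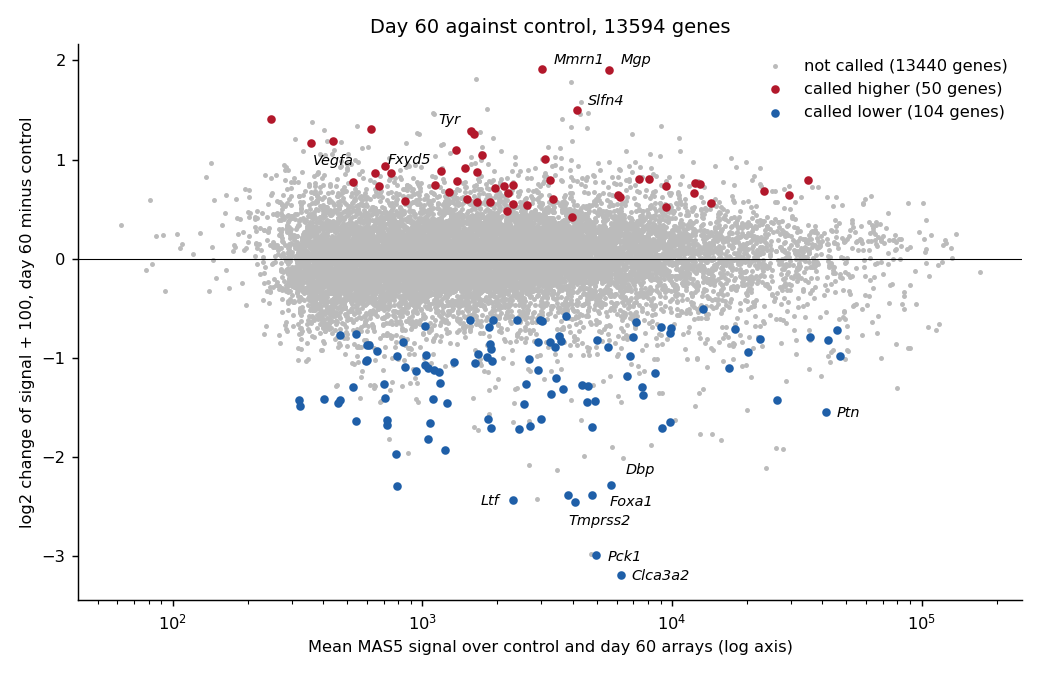
Change from control to day 60 (vertical axis, log2 of signal + 100) against mean MAS5 signal over the 10 compared arrays (horizontal axis, logarithmic), 1 point per tested gene. The 50 red genes were called higher and the 104 blue genes lower. The largest falls, those of Clca3a2 and Pck1, reach about -3, and no called rise exceeds 1.91.

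The vector gene was read on a probe set for Vegfa whose signal stood between 3928 and 9410 on day 5 and between 7128 and 13514 on day 20. On day 60 arrays A to E it was 332, 1076, 242, 219 and 449, and on control arrays A to E it was 145, 66.5, 142, 162 and 467. Day 60 array B was the highest of the 10 and control E the next. Every day 60 array lay above control A to D, so the groups overlapped only through control E. The log2 change was 0.87 ± 0.35 (SE; adjusted p = 0.214). The other Vegfa probe set did not rise with the vector, with mean signals of 2022 in control, 720 on day 5 and 1029 on day 20. Its change on day 60 (-0.21, adjusted p = 0.645 in a limma fit of all probe sets) thus says nothing about the vector gene. Among the receptors, Kdr changed by -0.18 (adjusted p = 0.734) and Flt1 by -0.05 (0.94), and the Flt1 ligand Pgf by 0.57 (0.461). None of these 4 genes was called on day 60. The unassigned array had a Vegfa signal of 11111.

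The endothelium as a whole was near its control level. Of 39 pan-endothelial genes tested, 0 were called higher and 1 lower on day 60, with a median change of 0.07 beside 0.01 over all tested genes. Of all tested genes 0.368% were called higher and 0.765% lower. The junction genes Cdh5 (0.07) and Pecam1 (0.18), Cd34 (0.21), and Erg (-0.23), a transcription factor that maintains endothelial identity, all lay close to control, and none was called. On day 20 the median change of this list against control had been 1.54. Set against day 20, 0 of the 39 genes were higher on day 60 and 35 lower. In the same contrast of day 60 with day 20, 11% of all tested genes were higher and 11.2% lower. Genes of sprouting tip cells (0 of 22 called, median 0.14), pericytes (0 of 14, median 0.06) and basement membrane (0 of 20, median 0.05) were likewise not called on day 60. Esm1, secreted by tip cells, had the largest tip cell change (1.22, adjusted p = 0.13).

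The vessel genes called higher were of the lymphatic, arterial and VEGF receptor lists. The lymphatic list had 2 of 10 tested members called higher, Mmrn1 and Foxc2, and none lower, with a median change of 0.51, beside 0.368% of all tested genes called higher. The arterial and Notch list had 2 of 19 called higher, Mgp and Hey2, and none lower, with a median of 0.46, beside the same 0.368%. Nrp2, a co-receptor for VEGF-C and semaphorins on lymphatic and venous cells, was the only called gene among 10 VEGF ligands and receptors. The venous list had 0 of 10 called and a median of 0.35. Prox1 and Ccl21a, the defining lymphatic genes, did not enter the test. Of the tested lymphatic members, Lyve1, a hyaluronan receptor of lymphatic capillaries that some macrophages also carry, changed by 0.82 (adjusted p = 0.397), Reln by 0.82 (0.1), Flt4 by 0.54 (0.328) and Pdpn by 0.49 (0.537).

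Mmrn1 encodes multimerin 1, a large protein of platelets and endothelium that is used as a lymphatic marker. Its signal on control arrays A to E was 1167, 947, 1319.5, 976 and 693, and on day 60 arrays A to E 9779.9, 7807, 2376, 1579 and 3628. All 5 day 60 arrays lay above all 5 controls, with A and B the highest. The rise was 3.76-fold (log2 1.91 ± 0.41, adjusted p = 0.0293). On day 5 it had been 0.87 above control and on day 20 2.48, and day 60 did not differ from day 20 by the test (change -0.57, adjusted p = 0.348). Foxc2, a transcription factor of lymphatic valves that also acts in other mesoderm, had signals of 276, 384, 116, 224 and 92.4 in control and 1008, 1099, 448, 411 and 309 on day 60. Day 60 A and B were the highest, and day 60 E lay below control B. Its change was 1.19 ± 0.28 (adjusted p = 0.0465), below the 2.51 of day 20 (day 60 minus day 20 adjusted p = 0.00228). The Mmrn1 call ended without control A, control D, control E, day 60 A, day 60 B or day 60 E (adjusted p from 0.0518 to 0.091). That of Foxc2 ended without control A, control C, control D, control E, day 60 A or day 60 B (adjusted p from 0.0732 to 0.133). Neither was called when all probe sets of a gene were averaged, Mmrn1 standing at 1.07 (adjusted p = 0.0517) and Foxc2 at 1.19 (0.0575). That average took in probe sets under the minimum signal too, and Mmrn1 had no other tested probe set. The change of Foxc2 was the same as in the main fit, so its call ended only through the new fit over all genes.

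Nrp2 was read at 6443, 9413, 5695, 6999 and 7046 on control arrays A to E and at 11563, 15076, 10469, 11453 and 10807 on day 60. The groups did not overlap, with control B the highest control and day 60 B the highest of all. The rise was 1.67-fold (log2 0.74 ± 0.13, adjusted p = 0.0159), beside 0.76 on day 20. Its call ended without control A (adjusted p = 0.0535) and with all its probe sets averaged (0.62, adjusted p = 0.0517). Mgp, matrix Gla protein, inhibits calcification and binds BMP ligands in vessel walls. Its signals were 1880, 2579, 1360, 1782 and 1836 in control and 10840, 17084, 12398, 1789 and 4602 on day 60. Day 60 D lay at the control level and the other 4 day 60 arrays above every control. Its rise was 3.75-fold (log2 1.91 ± 0.41, adjusted p = 0.0326), against 4.81 on day 20. Its call ended without control A, control C, control D, control E, day 60 A or day 60 B (adjusted p from 0.0524 to 0.0908). Hey2, a Notch target of arterial cells, stood at 397, 385, 462, 488 and 342 in control and 936, 1157, 1163, 554 and 555 on day 60. The groups did not overlap, and day 60 D and E were the nearest to control. Its change was 0.87 ± 0.20 (adjusted p = 0.0465), against 2.02 on day 20. The Hey2 call ended without control A, control C, control D, control E, day 60 A, day 60 B or day 60 C (adjusted p from 0.0575 to 0.125), and in the fit of averaged probe sets (0.056). The other Notch target genes Hey1 (-0.35) and Hes1 (0.16) were not called, nor was Efnb2, the arterial ephrin (0.83, adjusted p = 0.111).

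The array means of the lymphatic list were 10.2 to 10.4 in control and 11.6, 11.1, 10.9, 10.6 and 10.6 on day 60 arrays A, B, E, D and C. Day 60 arrays A, B and D also had the highest ratios of 3' to 5' Actb signal of the 10, 13.97, 10.4 and 10.9, beside 4.15 to 9.12 in control and 4.32 and 4.52 on day 60 C and E. This ratio grows as RNA breaks down. The same ratio for Gapdh was 7.72 on day 60 A and 3.62 on D, beside 1.85 to 2.57 in control and 1.68 to 2.48 on the other 3 day 60 arrays. Without these 3 arrays the lymphatic list had 0 called genes and a median of 0.31, with Mmrn1 at 1.47 above control (adjusted p = 0.101) and Nrp2 at 0.59 (0.14). With the Actb ratio as a covariate Mmrn1 stood at 1.89 (0.0337) and Nrp2 at 0.73 (0.0185). The mean of the 3 tested red blood cell genes was 12.0 on both day 60 A and B, 11.2 on C, 11.05 on D and 10.2 on E, beside 9.97 to 10.4 in control. Their part in the result was not tested.

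**Figure D2:**
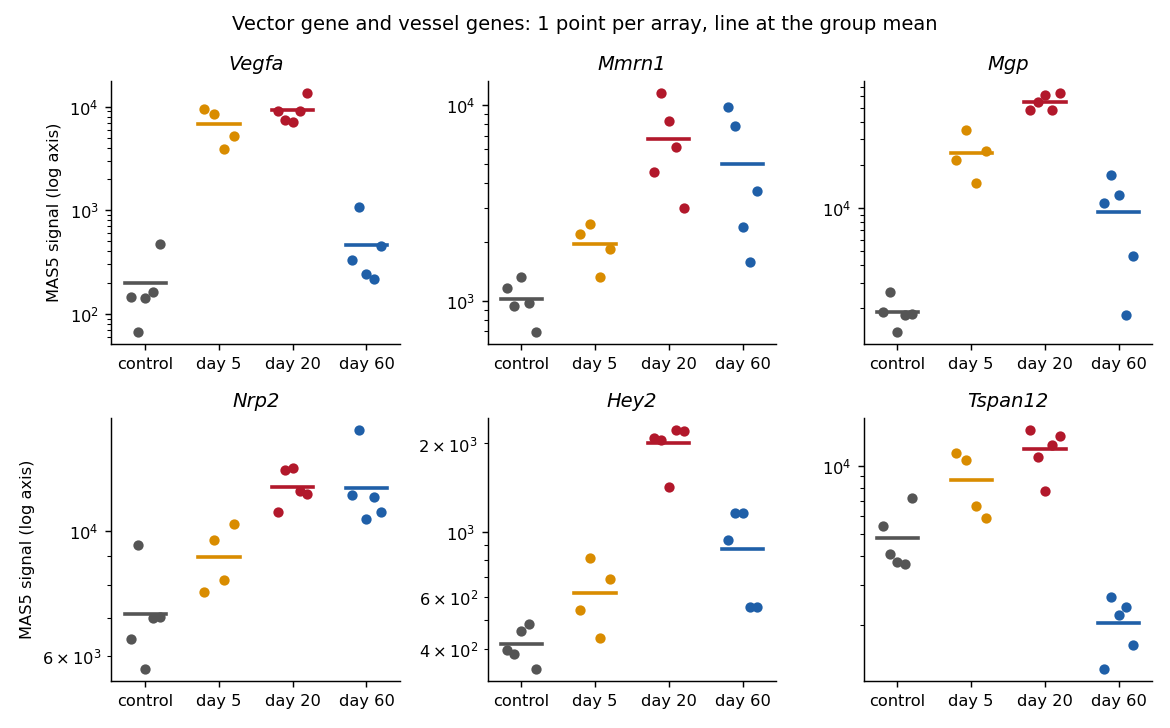
MAS5 signal (vertical axis, logarithmic) of Vegfa and 5 vessel genes in control, day 5, day 20 and day 60, 1 point per array and a line at each group's mean. Vegfa lies far below day 20 on day 60, with a mean of 463 beside 196 in control, and only control E overlaps the day 60 arrays. Nrp2 and Mmrn1 still lie above every control array, the day 60 means of Mgp and Hey2 lie between those of control and day 20, and Tspan12 lies below every array of the other groups.

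Tspan12 was the called pan-endothelial gene. It encodes a tetraspanin that strengthens Norrin signalling through Frizzled-4 in retinal vessels. Its signals were 5433, 4105, 3778, 3704 and 7187 in control and 1285, 2668, 2205, 2412 and 1634 on day 60. Every day 60 array lay below every control. The fall was 2.3-fold (log2 -1.20 ± 0.24, adjusted p = 0.0204). On day 20 the gene had been 1.28 above control (adjusted p = 0.000436), so that day 60 lay -2.49 from day 20 (adjusted p = 4.86e-07). Its call against control ended without control A, control E, day 60 A or day 60 E (adjusted p from 0.0523 to 0.0632).

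Several genes of this kind were above control at an earlier harvest and below it on day 60. They were named after their values were seen, apart from Tspan12. Scarb1, the receptor that takes up cholesterol from HDL, had signals of 3810.2, 4614, 5104, 4013 and 4839 in control and 2188, 2746, 2187, 2933 and 2816 on day 60. The groups did not overlap. It had been 0.61 above control on day 5 and 0.63 on day 20, and was -0.78 ± 0.14 on day 60 (adjusted p = 0.0159), a difference from day 20 of -1.41 (adjusted p = 8.85e-07). Cav2, a caveolin of endothelium and fat cells, stood at 17757, 22553, 21617, 21444 and 27665 in control and 11683, 17383, 14320, 12263 and 11959 on day 60. Here too every day 60 array was below every control. Its change was -0.71 ± 0.15 (adjusted p = 0.0304) after 0.45 on day 20 (day 60 minus day 20 adjusted p = 2.03e-05). Ano1, a calcium-activated chloride channel of secretory epithelium and smooth muscle, was -0.86 on day 5, 0.91 on day 20 and -1.45 ± 0.28 on day 60 (adjusted p = 0.019). The Scarb1 call ended without control E (adjusted p = 0.0547). Those of Cav2 and Ano1 had adjusted p-values up to 0.096 and 0.0578 in such omissions. Both ended without control A, control E and day 60 A, and in 6 and 3 of the 10 omissions in all. With all its probe sets averaged Cav2 was at -0.39 (adjusted p = 0.134).

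Among the gene lists, the cell cycle list had the most members called higher. Of 38 tested cell cycle genes, 4 were called higher and 0 lower, and 23 were higher at an unadjusted p under 0.05. The share of all genes called higher was 0.368%, and that at the unadjusted threshold 8.36%. The median change of the list was 0.52, after 1.59 on day 5 and 0.93 on day 20 against the same controls, and 34 of 38 changes were positive. The array means of the list were 9.84, 10.6, 10.4, 10.2 and 9.95 on control arrays A to E and 10.4, 10.99, 10.4, 10.7 and 10.7 on day 60 arrays A to E, so that control B lay above day 60 A and C. Control B was the highest and A and E the lowest controls also for the means of the hair follicle list (13.7, 12.0 and 11.5) and the epidermal list (12.6, 11.04 and 10.8), whose part in the result was not tested. The called members were Top2a, the topoisomerase that untangles DNA before mitosis, the kinetochore gene Cenpf, Birc5 (survivin) and Rrm1, a subunit of ribonucleotide reductase. Mki67, the usual marker of dividing cells, changed by 0.76 (adjusted p = 0.0874), Cdk1 by 0.77 (0.0787) and Bub1 by 1.01 (0.0827), and none of these was called. Called genes outside the list included Prc1, which bundles the microtubules of the dividing spindle, Cdca5 (sororin), which holds sister chromatids together, Dbf4, the activator of the replication kinase Cdc7, the repair gene Rad54l, and Uhrf1, which maintains DNA methylation.

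Prc1 was among the 2 rises called in every omission of 1 array, but its call ended with all its probe sets averaged (0.71, adjusted p = 0.0582) and without day 60 A, B and D (0.78, adjusted p = 0.0687). Its signals were 863, 1211, 1102, 997 and 790.5 on control arrays A to E and 2287, 2241, 1329.8, 1726 and 2327 on day 60. No arrays overlapped, with day 60 C nearest to control. It rose 1.89-fold (log2 0.92 ± 0.14, adjusted p = 0.00962), after 1.85 on day 5 and 1.48 on day 20. Top2a stood at 1551, 2964, 2675, 1786 and 1353 in control and 4291, 5178, 2701, 4485 and 4068 on day 60. Day 60 C lay below control B, and the other 4 day 60 arrays above every control. It rose 2.003-fold (log2 1.002 ± 0.19, adjusted p = 0.0176). Birc5 signals were 948, 1124, 902, 829 and 966 in control and 1246, 1889.8, 1244, 1676 and 1943 on day 60, without overlap. Its change was 0.67 ± 0.14 (adjusted p = 0.0233). Cdca5 stood at 606, 1019.9, 968, 611 and 865 in control and 1238, 2043, 1036, 1376 and 1456 on day 60. The lowest day 60 array, C, was just above the highest control, B. Its change was 0.74 ± 0.17 (adjusted p = 0.0394). The Top2a call ended without control A, control E or day 60 A (adjusted p from 0.0523 to 0.0578). The Birc5 call ended without control A, control C, control D, control E or day 60 E (adjusted p from 0.0511 to 0.064). That of Cdca5 ended without control A, control D, control E, day 60 A, day 60 B or day 60 E (adjusted p from 0.0676 to 0.124). The list had 0 called members without control A (median 0.42), and 0 without day 60 A, B and D (median 0.50) or with the unassigned array as control (median 0.25). The last placing says little, as the Vegfa signal of that array (11111) was far above every control. In the fit of averaged probe sets Top2a was at 0.48 (adjusted p = 0.0341), Cdca5 at 0.39 (0.203), Cenpf at 0.28 (0.332) and Rrm1 at 0.06 (0.844), the latter 3 without a call. Dbf4, Rad54l and Uhrf1 were not called there either (adjusted p from 0.1 to 0.163).

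Some of these genes hold a promoter motif, which the comparison did not use. Many mitotic genes carry a cell cycle homology region near their start, a motif read by the DREAM complex, which keeps them silent in resting cells. The 6 letters TTTGAA, on either strand (TTCAAA on the other), were searched for in the window from 250 bases before to 50 bases after the start of each gene in RefSeq (GRCm38.p6). They were in 17.9% of 32851 windows, in 14.7% of the 10917 tested genes with a window and in 13 of 31 cell cycle genes (41.9%). Among the called genes they were in 8 of 41 higher (19.5%) and 16 of 85 lower genes (18.8%). The 8 were Aspm, Cdca5, Cenpf, Cstf3, Dbf4, Prc1, Slfn4 and Top2a. The 250 bases upstream of Top2a and Cdca5 are shown because both genes rose and both hold the motif upstream of the start, in 2 copies each, in capitals.
Top2a (chr11:99024190-99024439, minus strand): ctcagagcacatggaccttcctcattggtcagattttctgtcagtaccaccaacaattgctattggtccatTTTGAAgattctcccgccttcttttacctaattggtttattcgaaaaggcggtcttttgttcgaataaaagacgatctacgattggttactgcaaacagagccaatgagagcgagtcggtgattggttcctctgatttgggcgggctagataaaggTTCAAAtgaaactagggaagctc
Cdca5 (chr19:6084847-6085096, plus strand): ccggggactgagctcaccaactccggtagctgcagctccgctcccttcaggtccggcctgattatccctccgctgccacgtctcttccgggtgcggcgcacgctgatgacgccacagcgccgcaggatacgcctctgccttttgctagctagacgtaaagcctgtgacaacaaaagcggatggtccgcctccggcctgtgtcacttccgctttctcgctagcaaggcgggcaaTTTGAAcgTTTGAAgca
The copies start 179 and 23 bases before the start of Top2a, and 17 and 9 bases before that of Cdca5. A match of letters is a description of the window and shows no bound factor.

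Among the other higher genes, Fxyd5 had the smallest p. Fxyd5 (dysadherin) is a small membrane protein that modulates the sodium pump and cell adhesion. Its signals were 656, 988, 749, 752 and 899 in control and 1676, 1794, 1359, 1317 and 1743 on day 60. The groups were well apart, the lowest day 60 array being D. It was 1.85-fold higher on day 60 (log2 0.89 ± 0.13, adjusted p = 0.00424), and had been 2.69 above control on day 5 and 2.52 on day 20. Slfn4, a Schlafen gene of myeloid cells, had signals of 1363, 1983, 2149.7, 2317 and 1800 in control and 10988, 2513, 3168, 7653 and 7679.9 on day 60. Day 60 A was the highest and B the nearest to control. It was 2.83-fold higher (log2 1.501 ± 0.29, adjusted p = 0.0197), and its call ended without control A, control E, day 60 A or day 60 E (adjusted p from 0.0523 to 0.0632). Mertk, a receptor by which phagocytes clear dying cells, was 1.63-fold higher (adjusted p = 0.0194) without overlap of arrays, and its call ended without control A (adjusted p = 0.0578). Sat1, which acetylates polyamines for breakdown, changed by 0.75 (adjusted p = 0.0367, up to 0.116 in the omissions of 1 array). Of 23 macrophage markers 0 were called (median 0.48), beside 1.13% of all tested genes. The array means of that list were 10.9 to 11.8 in control and 12.2, 11.6, 10.8, 12.0 and 12.6 on day 60 arrays A to E. Day 60 C was thus below every control and A, D and E above every control. The largest macrophage change was that of the lectin gene Clec4n (1.47, adjusted p = 0.0658). Of the list, 20 changes were positive and 3 negative, those of Cd14 (-0.80, adjusted p = 0.121), Siglec1 (-0.26) and Adgre1 (-0.06).

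Tyr, Fam107a and Ptch1 were called higher on day 60 against control and against day 20. Tyr encodes tyrosinase, the first enzyme of melanin synthesis in hair pigment cells. Its signals were 707, 901, 1166, 763 and 722 in control and 1780.2, 3542, 1738, 2130.1 and 2155 on day 60. All 5 day 60 arrays lay above all controls, with B far above the other 4. It rose 2.44-fold (log2 1.29 ± 0.25, adjusted p = 0.019), after -0.01 on day 5 and -0.50 on day 20 (day 60 minus day 20 adjusted p = 3.88e-05). The call ended without control A or control E (adjusted p from 0.0563 to 0.0578). It also ended with all its probe sets averaged (0.87, adjusted p = 0.0748), since of its other tested probe sets 1 changed by 1.21 and 1 by 0.10. Tyr was the 1 called gene of 13 tested pigment genes, beside 1.13% of all tested genes. Of the others, Tyrp1 changed by 1.34 (adjusted p = 0.132) and Dct by 0.91 (0.151). Changes of the list were positive for 11 genes and negative for 2, Kit (-0.52, adjusted p = 0.0768) and Sox10 (-0.42, 0.436). Ptch1, the Hedgehog receptor and itself a Hedgehog target, was named after its values were seen. It changed by 0.56 (adjusted p = 0.0481, up to 0.157 in the omissions of 1 array), after -0.47 on day 5 and -0.78 on day 20 (day 60 minus day 20 adjusted p = 9.43e-07). Fam107a, an actin-associated gene induced by stress hormones, rose by 1.26 (adjusted p = 0.0381, up to 0.109 in such omissions), after -0.36 on day 5 and 0.08 on day 20 (day 60 minus day 20 adjusted p = 0.00515). With all probe sets of a gene averaged neither was called, Ptch1 being at 0.33 (adjusted p = 0.557) and Fam107a at 0.75 (0.153). Of 30 hair follicle genes 0 were called (median 0.52), and of 26 epidermal genes 0 (median 0.47). The hair follicle mean ranged from 11.5 to 13.7 over the control arrays and from 12.3 to 13.4 over day 60. Notum, an enzyme that inactivates Wnt proteins, was higher (0.94, adjusted p = 0.0416, up to 0.107 in the omissions). The ligand Wnt5b was lower (-0.93, adjusted p = 0.0391, up to 0.116). They were the 2 called genes of 27 tested in the Wnt pathway, beside 1.13% of all tested genes. Hspa5 (BiP), the main chaperone of the endoplasmic reticulum, was the 1 called gene of 21 ER chaperone and stress genes, beside 1.13% of all tested genes. It changed by 0.80 (adjusted p = 0.0481, up to 0.157 in the omissions), and control B overlapped day 60. Averaged over its probe sets it stood at 0.48 (adjusted p = 0.0859).

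Genes of gland and duct epithelium were among the deepest falls. The mammary luminal list had 3 of 27 tested genes called lower, Ltf, Foxa1 and Aqp5, and 0 higher, beside 0.765% of all genes called lower, with a median change of -0.53. The glandular secretory list had 2 of 13 called lower, Clca3a2 and Slc12a2, and 0 higher (median -0.47). Of 9 mammary basal genes 2 were called lower, Oxtr and Mme, while the other 7 had positive changes and were not called. They include Krt5 (0.12) and Krt14 (0.23), keratins that mark basal cells of the duct and also of the epidermis. The luminal keratins Krt18 (-2.01, adjusted p = 0.0885) and Krt8 (-1.88, 0.124) and the casein gene Csn3 (-2.00, 0.0652) were not called, and the epithelial genes Cdh1 (-0.02) and Epcam (-0.53) were not called either. Of the 27 changes in the luminal list 22 were negative and 5 positive. The positive ones included Spdef (0.42), Wnt4 (0.22) and Gata3 (0.15), and the oestrogen receptor gene Esr1 changed by -0.16, all without a call. On day 20 the luminal list had a median of -2.07 against control. From day 20 to day 60, 19 of its 27 genes were higher and 0 lower, beside 11% and 11.2% of all tested genes.

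Clca3a2, of a family of secreted metal-dependent proteases first described as chloride channel regulators, had signals of 7518, 19946, 8869, 12558 and 5504 on control arrays A to E and 195, 2669, 473, 3983 and 691 on day 60. Every day 60 array lay below every control, with A the lowest and D the highest. The fall was 9.15-fold (log2 -3.19 ± 0.60, adjusted p = 0.0176), after -5.33 on day 20, and it was called in every omission. Ltf, lactoferrin, is an iron-binding protein of milk and other secretions and of neutrophil granules. It stood at 5173, 4894, 2622, 2352 and 4847 in control and 436, 745, 562, 976 and 482 on day 60, and the groups were far apart. It fell 5.41-fold (log2 -2.44 ± 0.32, adjusted p = 0.00238), and day 60 did not differ from day 20 by the test (change 0.43, adjusted p = 0.374). Of the 11 tested neutrophil genes Ltf was the 1 called, beside 1.13% of all tested genes. Foxa1, the factor that opens chromatin for the oestrogen receptor in luminal cells, had signals of 7651, 6963, 4982, 6560.1 and 10916 in control and 197, 5384, 749.8, 3355 and 984 on day 60. Day 60 B lay above control C, day 60 D was next, and A, C and E were far lower. The change was -2.39 ± 0.54 (adjusted p = 0.0394), after -5.56 on day 20 (day 60 minus day 20 adjusted p = 0.000333). The Foxa1 call ended without control A, control C, control D, control E, day 60 A or day 60 E (adjusted p from 0.0549 to 0.112), and in the fit of averaged probe sets (0.0558).

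Aqp5, the water channel of secretory glands, stood at 2210.3, 1151, 1274, 2019 and 2805 in control and 24.5, 1202, 317, 1063 and 289 on day 60. Day 60 B lay above control B, and A was the lowest. Its change was -1.93 ± 0.45 (adjusted p = 0.0416), and the call ended without control A, control C, control D, control E, day 60 A or day 60 E (adjusted p from 0.0564 to 0.122). Slc12a2, the cotransporter that loads secretory cells with chloride, had signals of 54848, 64163, 52110, 72496 and 65605 in control and 29294, 23575, 29573, 54110 and 25422 on day 60. Day 60 D overlapped the controls, and the other 4 lay far below. Its change was -0.99 ± 0.20 (adjusted p = 0.0206), and the call ended without control A, control D, control E, day 60 A or day 60 E (adjusted p from 0.0525 to 0.0589). Oxtr, the receptor by which oxytocin contracts myoepithelial cells, had signals of 3084, 2439.6, 2202, 2413 and 3174 in control and 480.3, 1865, 319.8, 1951 and 477 on day 60. Day 60 B and D lay near control and A, C and E far below, with no overlap. Its change was -1.62 ± 0.35 (adjusted p = 0.0326), and the call ended without control A, control C, control D, control E, day 60 A or day 60 E (adjusted p from 0.0511 to 0.0928). Mme (CD10), a peptidase of the myoepithelial surface, changed by -1.28 ± 0.24 (adjusted p = 0.0176), and its call ended without control A, control E or day 60 A (adjusted p from 0.0523 to 0.0578). In the fit of averaged probe sets none of these 4 was called, Aqp5 being at -1.93 (adjusted p = 0.055), Slc12a2 at -1.02 (0.0582), Oxtr at -0.92 (0.0986) and Mme at -0.74 (0.169). The change of Aqp5 was the same there as in the main fit, so its call ended only through the new fit over all genes.

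Tmprss2, Rasef, Ptn, Muc16 and Prom1 were among the 20 largest falls without overlap and stand in none of the gene lists. Tmprss2, an apical serine protease, had signals of 6516, 7050.2, 5406, 5992 and 8410.2 in control and 344, 3796, 888, 1944 and 679.8 on day 60. No arrays overlapped, and day 60 B and D were the highest of their group. The fall was 5.48-fold (log2 -2.46 ± 0.39, adjusted p = 0.0111). Rasef, a Rab family GTPase, had day 60 signals of 132, 671, 96.9, 515 and 126 against 1129 to 1552 in control (log2 -1.97 ± 0.33, adjusted p = 0.0111). Day 60 B and D were again the highest. Ptn, the growth factor pleiotrophin, fell from 66399, 60014, 48581, 62152 and 58661 in control to 8973, 42173, 16368, 36813 and 14063 on day 60 (log2 -1.55 ± 0.31, adjusted p = 0.0215). Its call ended without control A, control E, day 60 A or day 60 E (adjusted p from 0.0528 to 0.064). Muc16, a large membrane mucin, was dim, at 448 to 642 in control and 49.5 to 237 on day 60 (log2 -1.49 ± 0.25, adjusted p = 0.0111), and had not been called on day 20 (-0.56, adjusted p = 0.0909). Tmprss2, Rasef and Muc16 were called in every omission. With averaged probe sets Tmprss2 was at -1.33 (adjusted p = 0.0157) and Ptn at -1.21 (0.0738). Prom1, a protein of membrane protrusions, fell by 1.62 log2 units (adjusted p = 0.0176), and the call ended without control A, control E or day 60 A (adjusted p from 0.0523 to 0.0563). Wfdc18, named after its values were seen, was 2316, 14921, 3962, 2928 and 2028 on day 60 and 11290 to 15678 in control, so that B alone of the day 60 arrays lay within the controls (log2 -1.71, adjusted p = 0.0381, up to 0.105 in the omissions).

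The array means of the mammary luminal list were 11.4 to 11.6 in control, and 9.92, 11.4, 10.5, 11.3 and 10.5 on day 60 arrays A to E. Day 60 B thus reached the control range and D lay just under it, while A, C and E stood lower. The ratios of 3' to 5' signal given above were highest on day 60 A, B and D for Actb and on A and D for Gapdh. The part of the Gapdh ratio in the result was not tested. With C and E as the only day 60 arrays, 9 of the 27 genes were called lower and the median was -0.81. With the Actb ratio as a covariate 3 were called and the median was -0.57. Without day 60 B 8 were called, and without control A or without day 60 A 1.

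**Figure D3:**
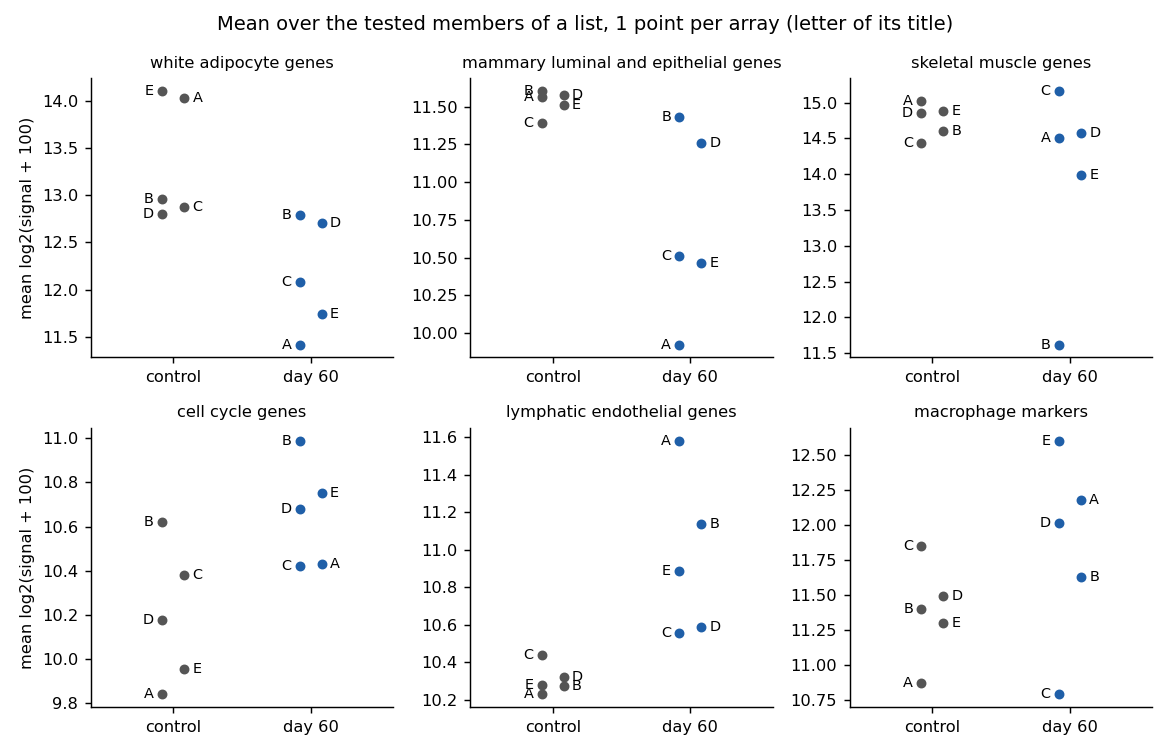
Mean log2(signal + 100) over the tested members of 6 gene lists (vertical axis), 1 point per array of control and day 60, with the letter of the array. In the mammary luminal panel day 60 B lies at 11.4, within the control range, and A at 9.92. In the fat panel all day 60 arrays lie below all controls, and in the muscle panel day 60 B lies alone at 11.6.

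Some genes of white fat cells fell, and the rest of the list lay below control without a call. White adipocyte genes had 5 of 32 tested members called lower and 0 higher, with a median change of -1.22, and all 32 changes were negative, beside 0.765% of all tested genes called lower. The called genes were Pck1, whose enzyme makes the glycerol backbone of stored fat, the lipases Lipe and Pnpla2, Dgat2, which joins the last fatty acid to a triglyceride, and Pparg, the nuclear receptor that drives fat cell differentiation. Most genes that define the fat cell were low without being called, among them the hormone genes Adipoq (-2.11, adjusted p = 0.125) and Lep (-1.20, 0.123), and the lipid droplet gene Cidec (-1.65, 0.0701). Fabp4 changed by -0.66 (0.218) and Lpl by -0.33 (0.233). On day 20 the list had a median of -2.07 against control, and from day 20 to day 60, 17 members were higher and 1 lower, beside 11% and 11.2% of all tested genes. Of 12 tested thermogenic genes 0 were called (median -0.76), with Ucp1, the brown fat uncoupler, at -2.99 (adjusted p = 0.107).

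Pparg was called in every omission. Its signals were 1417, 1006, 696, 666 and 1598 in control and 210.1, 474, 259, 491 and 248 on day 60. No arrays overlapped, control C and D and day 60 B and D being the nearest. It fell 2.66-fold (log2 -1.41 ± 0.24, adjusted p = 0.0111). On day 20 it had been at 0.07 from control (adjusted p = 0.848), and it was the 1 member of its list lower on day 60 than on day 20 (change -1.48, adjusted p = 0.000202). Pck1 had signals of 12235, 6129, 5958, 3754 and 14174 in control and 12.5, 2708, 1048, 3177 and 567 on day 60. Day 60 A was nearly dark, and D was the closest to control. The fall was 7.98-fold (log2 -2.996 ± 0.64, adjusted p = 0.0284), with -4.85 on day 20. Its call ended without control A, control C, control E or day 60 E (adjusted p from 0.0501 to 0.091). Lipe, hormone-sensitive lipase, stood at 2218, 1248, 1553, 1464 and 3031 in control and 420, 743, 404, 856 and 657 on day 60, without overlap. Its change was -1.46 ± 0.26 (adjusted p = 0.0159), and the call ended without control A or control E (adjusted p from 0.0535 to 0.0547). Pnpla2 changed by -1.13 (adjusted p = 0.0215), and its call ended without control A, control E, day 60 A or day 60 E (adjusted p from 0.053 to 0.0715). Dgat2 changed by -1.19 (adjusted p = 0.0281), and the call ended without control A, control E, day 60 A or day 60 E (adjusted p from 0.0645 to 0.091). Averaging all probe sets ended 3 of the 5 calls: Pck1 was at -1.20 (adjusted p = 0.0507), Pnpla2 at -0.64 (0.216) and Dgat2 at -0.97 (0.0607). Pck1 had no other tested probe set, so its smaller change there came from probe sets under the minimum signal.

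The next called genes are in no list of fat genes. Angptl4, the secreted inhibitor of lipoprotein lipase, was 4669.5, 4053, 3792, 3698 and 7157 in control and 1199.5, 3699, 1162, 1406 and 1906 on day 60. Day 60 B was level with the lowest control, and control E was far above the rest. The change was -1.36 ± 0.27 (adjusted p = 0.0197), after -0.31 on day 20 (adjusted p = 0.399). The call ended without control A, control E or day 60 A (adjusted p from 0.0578 to 0.0596). Npr3, the receptor that clears natriuretic peptides, was 3014, 1784, 6133, 4954 and 3367 in control and 949, 1267, 831, 1227 and 843 on day 60. No arrays overlapped, and the day 60 arrays lay close together. It fell 3.29-fold (log2 -1.72 ± 0.25, adjusted p = 0.00512), near its -1.84 of day 20. Ghr, the growth hormone receptor, was 54735, 44133, 50630, 52112 and 68103 in control and 28248, 30713, 25816, 39129 and 28560 on day 60, again apart (log2 -0.82 ± 0.14, adjusted p = 0.0111). Npr3 and Ghr were called in every omission, and Npr3 was at -1.08 with all its probe sets averaged (adjusted p = 0.00159). Prkar2b, a regulatory subunit of protein kinase A, changed by -1.65 (adjusted p = 0.0176), and its call ended without control A, control E or day 60 A (adjusted p from 0.0523 to 0.0563). Gys2, a glycogen synthase, changed by -1.64 (adjusted p = 0.0215, up to 0.0752 in the omissions). Aoc3, an amine oxidase of fat and vessel wall named after its values were seen, was above control by 0.46 on day 20 (adjusted p = 0.215) and changed by -1.37 on day 60 (adjusted p = 0.0204, up to 0.0616 in the omissions).

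The array means of the white adipocyte list were 14.03, 12.96, 12.9, 12.8 and 14.1 on control arrays A to E and 11.4, 12.8, 12.1, 12.7 and 11.7 on day 60 arrays A to E. Control A and E stood more than 1 unit above the other 3 controls, and day 60 B and D lay just under those 3. Without control A 1 member was called lower (median -1.04), and without day 60 A 3 (median -1.04). Without day 60 B 12 were called (median -1.44), and with day 60 C and E alone 11 (median -1.48). The Actb ratio as a covariate gave 6 calls and a median of -1.28.

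**Figure D4:**
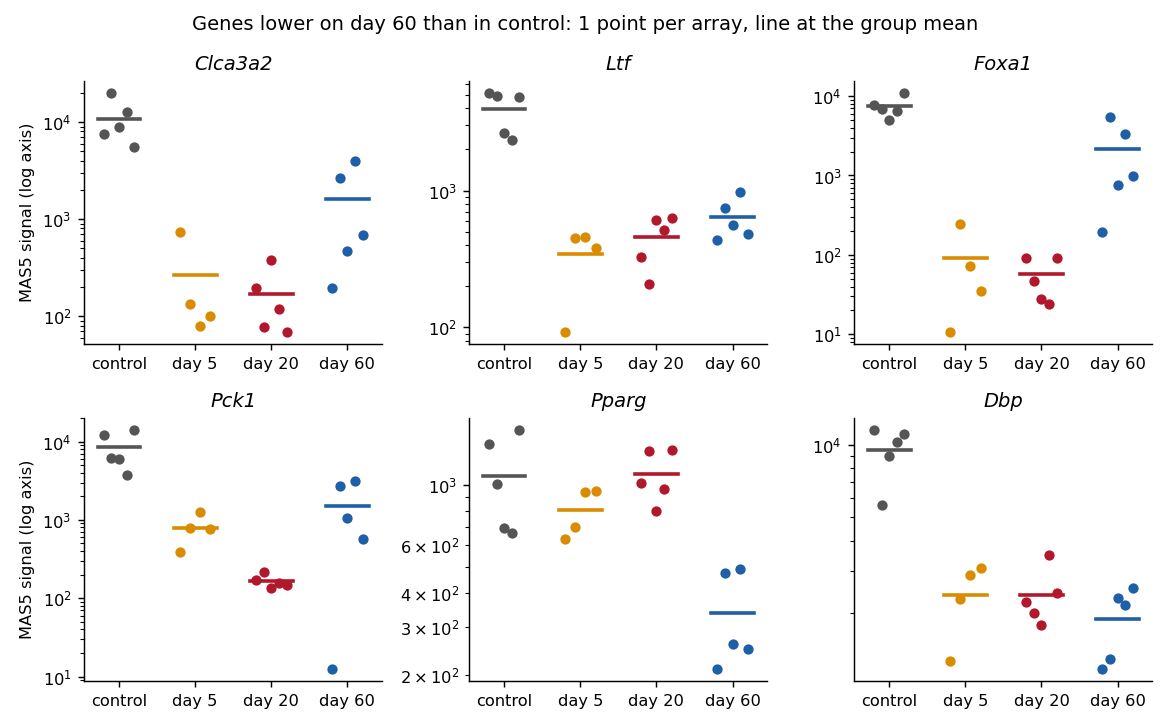
MAS5 signal (vertical axis, logarithmic) of 6 genes called lower on day 60, in control, day 5, day 20 and day 60, 1 point per array and a line at each group's mean. Clca3a2, Foxa1 and Pck1 rise from day 20 towards control with a wide spread on day 60, Ltf and Dbp stay near day 20, and Pparg is lowest on day 60.

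Dbp had the smallest p of all genes. It is a clock-controlled transcription factor whose transcript swings widely over the day. Its signals were 11590, 5645, 8992, 10280 and 11076 on control arrays A to E and 1171, 1287, 2304, 2166 and 2545 on day 60. Every day 60 array was below every control, control B being the lowest control. The fall was 4.89-fold (log2 -2.29 ± 0.26, adjusted p = 0.000588), after -1.98 on day 5 and -1.95 on day 20. Clock, the partner of Bmal1 (Arntl) in driving Dbp, was 3343, 3290.2, 3305, 3556 and 3435 in control and 5074, 4415, 3939, 4427 and 5123 on day 60. The controls lay close together and every day 60 array above them. It rose 1.34-fold (log2 0.42 ± 0.09, adjusted p = 0.038), and its call ended without control A, control C, control D, control E, day 60 A or day 60 E (adjusted p from 0.0556 to 0.101), and with all its probe sets averaged (0.26, adjusted p = 0.452). Of 18 tested clock genes these 2 were called (median -0.34), beside 1.13% of all tested genes. Among those not called, Nr1d1 changed by -1.30 (adjusted p = 0.0874), Nr1d2 by -0.85 (0.113), Tef by -0.65 (0.12) and Per3 by -0.65 (0.099), while Nfil3 changed by 0.95 (0.096), Npas2 by 0.60 (0.0927) and Arntl by 0.35 (0.331). Per1 (0.46, adjusted p = 0.311) and Cry1 (0.40, 0.301) had positive changes too, and Bhlhe40 (-0.48, 0.134) and Hlf (-0.46, 0.172) negative ones. Of the 18 changes 6 were positive and 12 negative. The sources used here do not give the hour of harvest.

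The rest of the calls kept in every omission were falls of genes with varied roles. Pfkfb3, which raises the activator of glycolysis, had signals of 5934, 2198, 2436, 3199.9 and 7428 in control and 1184, 1297, 821, 1699.5 and 723 on day 60. The groups did not overlap, and control A and E were the highest. It fell 3.24-fold (log2 -1.70 ± 0.29, adjusted p = 0.0111). Pfkfb3 was the 1 called gene of 21 in the glycolysis and hypoxia list, beside 1.13% of all tested genes. Stc2, the hormone stanniocalcin 2, changed by -1.31 ± 0.21 (adjusted p = 0.0111), and Aldh1a7, an aldehyde dehydrogenase, by -1.66 ± 0.28 (adjusted p = 0.0111). Txnip, the inhibitor of thioredoxin that also curbs glucose uptake, was 34476, 22714, 20704, 22241 and 33102 in control and 13116, 14135, 11205, 10982 and 19286 on day 60. Its groups did not overlap, with day 60 E the nearest to control (log2 -0.95 ± 0.16, adjusted p = 0.0111). Aifm1, a mitochondrial oxidoreductase that acts in cell death, was 4012, 3616, 3605, 3695 and 3794 in control and 1513, 1779, 2322, 2476 and 2245 on day 60. The controls were tight and the day 60 arrays all lower. Its change was -0.85 ± 0.15 (adjusted p = 0.0111), and it had not been called on day 20 (-0.32, adjusted p = 0.101). Dixdc1 changed by -1.05 (adjusted p = 0.0125) and 4933433N18Rik by -1.03 (adjusted p = 0.0111). With all probe sets of a gene averaged, Dixdc1 was at -0.35 (adjusted p = 0.254), Txnip at -0.87 (0.0667) and Stc2 at -1.11 (0.056), none of them called, and Pfkfb3 was at -0.97 (0.0207). The other tested probe set of Dixdc1 changed by -0.14. Stc2, Txnip, Aifm1, Ghr, Dixdc1 and 4933433N18Rik were named after their values were seen.

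The collagen, smooth muscle, fibroblast, lymphocyte, interferon and skeletal muscle lists had no call on day 60. Of 17 collagens other than type IV 0 were called (median 0.25), and from day 20 to day 60, 13 were lower and 1 higher, beside 11.2% and 11% of all tested genes. The largest change was that of Col12a1 (0.84, adjusted p = 0.136). None of 16 contractile smooth muscle genes (median 0.11), 18 resting fibroblast genes (median 0.22), 10 T and NK cell genes (median -0.03), 12 B and plasma cell genes (median 0.14) or 25 interferon-stimulated genes (median 0.05) was called. Of 22 TGF-beta and BMP genes 1 was called, beside 1.13% of all tested genes. It was Inhbb, a subunit of activin B, which was lower (-1.44, adjusted p = 0.0304, up to 0.096 in the omissions of 1 array). Its value with averaged probe sets was -0.69 (adjusted p = 0.081). Of 33 skeletal muscle genes 0 were called, though the median was -0.84 and 32 changes were negative. The array means were 14.4 to 15.0 in control and 14.5, 11.6, 15.2, 14.6 and 13.995 on day 60 arrays A to E. Day 60 B stood alone, and without it the median was -0.17. Neither the respiratory chain (0 of 26, median -0.38) nor fatty acid oxidation and TCA genes (0 of 20, median -0.49) had a call. Of their members 10 and 14 were lower at an unadjusted p under 0.05, beside 7.5% of all tested genes.

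**Figure D5:**
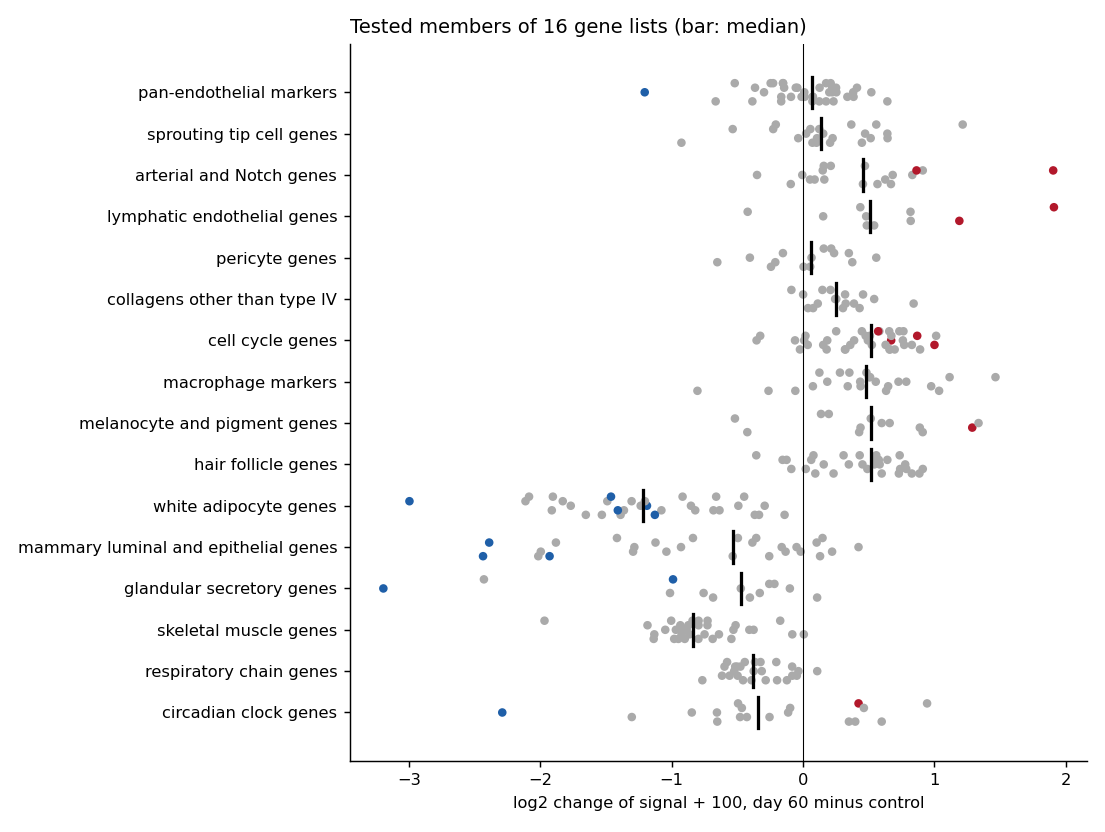
Change from control to day 60 (horizontal axis, log2 of signal + 100) of the tested members of 16 gene lists, 1 point per gene, with a bar at each list's median. Red points were called higher, blue lower and grey not called. The white adipocyte median lies at -1.22 and the pan-endothelial median at 0.07.

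Other probe sets of the same genes mostly agreed in sign. Of the 154 called genes 69 had another tested probe set, 106 in all, and 93 of these had the same sign. In a fit of all probe sets 9 of them were called in the same direction and 0 in the opposite one. Genes with another probe set of opposite sign included Cenpf, Rad54l, Rrm1, Aspm, Inhbb and Becn1. When all probe sets of a gene were averaged, 7 genes were called higher and 56 lower. Of the 154 called genes 55 were called in that fit, and for 56 the printed change was more than 1.5 times the averaged one. Of the 18 called in every omission 14 were called there, all but Prc1, Txnip, Stc2 and Dixdc1.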

How the data were processed

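RNA of mouse flank tissue was read on 20 Affymetrix Mouse Genome 430 2.0 arrays. The deposited table holds intensity values, 1 MAS5 signal per probe set on a linear scale. Per the labels, the authors made them with the MAS 5.0 algorithm in GCOS 1.3 (also in the submitters' processing notes), background corrected and scaled to 1500. No further normalization was applied. Groups came from source names and titles, and arrays are named by the letter of their title.

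Of 45101 probe sets, 34958 had 1 gene symbol in the platform annotation, 932 several and 9211 none here. Genes were named from the first kind, and each of 18193 genes was read on its probe set with the highest mean. The 13594 genes with a mean signal of at least 300 were tested. R 4.3.3 and limma 3.58.1 fitted group means of log2(signal + 100) over the 19 assigned arrays (lmFit, eBayes with a trend), two-sided. Called means a Benjamini-Hochberg adjusted p under 0.05 over all genes tested. The fit was tested on simulated data with known changes.

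The members compared and 54 gene lists (911 different genes tested) were chosen with earlier results of these data known, so no list was tested as a set. Genes were named by rule: Vegfa, Kdr, Flt1 and Pgf, the 20 largest rises and 20 largest falls among called genes whose arrays did not overlap (Riken clones and Gm or LOC models passed over), the called members of each list or its 2 most changed, and members that the account of a list needs. Genes outside this rule, such as Aspm, were chosen once their values were known, and where they have values the text says so. Promoters and motifs are from RefSeq, GRCm38.p6. Figures were drawn with matplotlib 3.10.9. Alternatives covered the pseudocount, the minimum signal, scaling, probe set choice, the spread, the Actb ratio, the placing of the unassigned array, the letter as a block and the omission of arrays.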

Additional observations from a re-analysis of the deposited data

Results flagged for a closer look

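Among 234 groups of 5 values that were looked at, all of control or day 60 arrays, 13 held a value that stood apart from the rest of its group. Chance gives about 1 in 20. Control E stood apart for Vegfa (467, the other controls reaching 162), Ankef1 (2048, others up to 1079), Abcd2 (7056, others up to 3847) and Angptl4 (7157, others up to 4670). Control B stood apart for Hspa5 (41702, others up to 24666) and for the mean of 15 glucocorticoid-responsive genes (12.9, others up to 12.6). Control A stood apart for the mean of the thermogenic fat genes (12.6, others up to 10.9).

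Day 60 B stood apart for Vegfa (1076, the other day 60 arrays reaching 449), Tyr (3542, others up to 2155), Pmaip1 (1650, others up to 960), which encodes the cell death protein Noxa, and Nrp2 (15076, others up to 11563). Day 60 D stood apart for Prom1 (3054, others up to 1442) and Slc12a2 (54110, others up to 29573). The array of conflicting labels entered no comparison, and its Vegfa signal was 11111, beside 66.5 to 467 in control.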

How the results depend on the processing

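The direction of the 154 called genes was the same in the 37 alternatives, except for 1 of the 150 genes that had a value when the probe set with the largest variance was used. This is no measure of stability, since the genes were called on these same arrays. Several alternatives, such as other thresholds and the omission of day 5 or day 20 arrays, also cannot move a change. The number of called genes was not stable. Against 50 higher and 104 lower genes, 28 were called higher with no minimum signal (lower count within 1.5 times), and 39 higher and 67 lower with a minimum of 1000. Centring on the 75th percentile gave 30 higher and array weights gave 147 higher. The fit of the 10 compared arrays gave 0 and 2. The largest-variance probe set gave 32 higher and the mean of all probe sets 7 and 56. With the unassigned array as control there were 0 and 0 calls, which says little, since its Vegfa signal (11111) was far above every control. Without day 60 A, B and D 10 were higher. At an adjusted p under 0.01 there were 2 and 3, and at 2-fold or more 12 and 63. Omitting 1 array at a time gave from 4 to 326 higher and from 17 to 267 lower. Among the day 5 and day 20 arrays, the lowest counts were 22 higher (without day 20 D) and 69 lower (without day 5 E).

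With the letter of the title as a replicate block, 32 genes were higher and 72 lower. Same-letter arrays correlated from -0.27 to 0.18 in their deviations from group means, and 1 of 5 day 60 arrays correlated best with its own letter. These values showed no pairing by letter, but so few arrays cannot exclude it.

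Among named genes, the sign turned for Vegfa (-0.0204), Col18a1 (-0.075) and Igfbp3 (-0.16) with the unassigned array as control. It turned for Kdr (0.0369), Pgf (-0.20) and Itgax (-0.12) without day 60 A, B and D, for Col4a6 (-0.0025) with the mean of probe sets, and for Rps6 (-0.28) with the largest-variance probe set. Flt1 (main value -0.05) ranged from -0.22 to 0.11 over the omissions of 1 array. None of these genes was called, and the cause was not tested. The 5 arrays a group and a wide spread on day 60 limit what could be called.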

Other observations

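The genes below stand in none of the gene lists and, apart from Abcd2, were named after their values were seen. Called lower on day 60 were Cat, which breaks down hydrogen peroxide (log2 -0.80, limma adjusted p = 0.0176), Scp2 (-0.72, 0.0176) and Hsd17b4 (-0.70, 0.0159), which act in peroxisomal oxidation, Agps, an enzyme of ether lipid synthesis (-0.89, 0.0215), and Abcd2, a fatty acid transporter (-1.46, 0.0233). The signal of Cat was 51441, 40420, 41086, 38947 and 55531 on control arrays A to E and 22577, 29925, 24561, 31434 and 22263 on day 60, without overlap. In the omissions of 1 compared array their adjusted p-values reached 0.0578, 0.0578, 0.0547, 0.064 and 0.0701. With all probe sets of a gene averaged, Hsd17b4 (-0.56, adjusted p = 0.0517), Agps (-0.40, 0.111) and Abcd2 (-1.05, 0.056) were not called.

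H2-Q10, a secreted class I molecule, changed by -2.39 (adjusted p = 0.0415, up to 0.122 in the omissions of 1 array), and Hc, complement component C5, by -1.42 (adjusted p = 0.0222, up to 0.0728). H2-Q10 signals were 19306, 1672, 2583, 1705 and 8686 in control and 433, 1398, 294, 1712 and 548 on day 60. Nnmt, which methylates nicotinamide, changed by -1.27 (adjusted p = 0.0423, up to 0.121). Cited2, a co-regulator that limits the hypoxia factor HIF1, was at 0.05 from control on day 20 and at -0.69 on day 60 (adjusted p = 0.0391, up to 0.11). With averaged probe sets H2-Q10 (adjusted p = 0.056), Nnmt (0.056) and Cited2 (-0.49, 0.13) were not called.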
